A study of Mus musculus with 6 samples.

Results

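Hair cells of the inner ear turn the bending of their stereocilia into a receptor current through a mechanotransduction channel at the tips of these actin-filled projections. The genes examined were 6 that encode subunits and close partners of this channel, namely Tmc1, Tmc2, Lhfpl5, Tmie, Cib2 and Cib3, and they were chosen by name for their role in the channel, with earlier results of these data known. Of these 6 genes, 5 were read by 9 probe sets annotated to a single gene, among 18193 genes named on the array. No probe set is listed for Cib2 in the annotation used here, and it was not analysed here. The samples were 3 arrays of cochlear and 3 of vestibular sensory epithelium of C3H mice, all wild type, taken at postnatal day 2 and not treated. Vestibular tissue joined the utricle and saccule with cristae of the lateral and anterior canals. Each pool came from 10 to 12 inner ears, and mesenchymal and neuronal cells were left on both tissues, which means that several cell types contributed RNA to each array. The sources used here do not tell which pool an array read, so a p-value reflects only how far these arrays spread, and part of that spread may be technical. In such a mixture, fewer cells of a type and less RNA per cell cannot be told apart.

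TMC1 and TMC2 are multipass membrane proteins that form the pore of the channel. LHFPL5 is a small membrane protein that couples the channel to protocadherin 15, the lower part of the tip link that pulls the channel open. TMIE is a short membrane protein without which hair cells carry no transduction current, and CIB2 and CIB3 are calcium-binding proteins that attach to the TMC subunits. In the mouse, transduction appears in hair cells around birth, vestibular hair cells acquire it before cochlear ones, and Tmc2 is known as the subunit that is used early and is later replaced by Tmc1 in the cochlea.

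The 2 tissues differed in Cib3 and Tmie, which were higher in the vestibule, and no member was higher in the cochlea. Cib3 stood 5.0 higher on the log2 scale (32.0-fold), and Tmie stood 0.83 and 0.70 higher at its 2 bright probe sets. Lhfpl5 had the same mean in both tissues. The Tmc1 and Tmc2 probe sets read low values in both. Values are log2 expression levels computed by the authors with the robust multiarray average (RMA) and deposited with 1 decimal, and each difference is vestibule minus cochlea. A probe set was tested with limma if its mean over the 6 arrays was at least 4.7, and it was called at a Benjamini-Hochberg adjusted p under 0.1 with a fold of at least 1.3. Of the 9 member probe sets 5 were tested, of which 3 were called towards the vestibule and 0 towards the cochlea (also 3 and 0 at an unadjusted p under 0.05, and under each of 16 alternative settings). Across all 29554 tested probe sets 19.4% were called, 12.0% towards the vestibule and 7.38% towards the cochlea. Of the 3 calls 2 were of Tmie, so by gene 2 of the 4 tested members were called towards the vestibule. Among all 14162 tested genes, by their brightest tested probe set, 15.1% were called towards the vestibule and 7.97% towards the cochlea. The 4 probe sets below the minimum were a pair for Tmc1, the one for Tmc2 and one of Tmie. Signals of different probe sets depend on their own probes, so that levels are compared between tissues and not between genes.

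**Figure D1:**
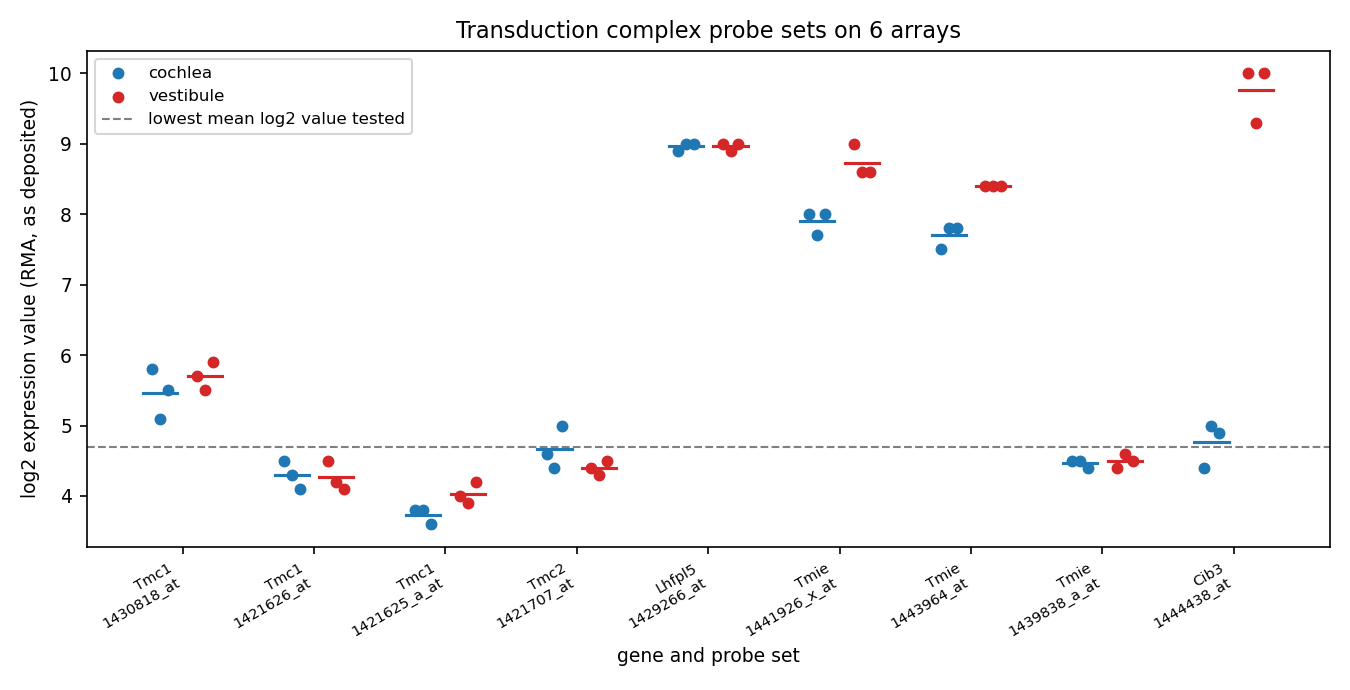
Log2 expression value (vertical axis) of each of the 9 member probe sets (horizontal axis), with 1 point for each of the 3 cochlear and 3 vestibular arrays and a bar at each mean; the dashed line marks 4.7, the lowest mean tested. The points of Cib3 span 4.4 to 5.0 on cochlear and 9.3 to 10.0 on vestibular arrays, those of Lhfpl5 lie at 8.9 to 9.0 in both tissues, and those of Tmc2 lie at 4.3 to 5.0.

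Cib3, the calcium-binding partner, was read by probe set 1444438_at. Its log2 values were 4.4, 5.0 and 4.9 on the cochlear arrays and 10.0, 9.3 and 10.0 on the vestibular arrays. All vestibular values lay above all cochlear values, with a gap of 4.3 between the nearest arrays, which is wider than the spread within either tissue. The cochlear mean was 4.77 ± 0.32 and the vestibular mean 9.77 ± 0.40 (SD, n = 3 arrays each). The difference of 5.0 had a standard error of 0.23 and a 95% confidence interval of 4.48 to 5.52 (limma adjusted p = 2.96e-06), which is a fold of 22.4 to 45.8. The cochlear mean was close to 4.7, the lowest mean tested, and whether low signal affected the fold was not tested. The annotation gives 1 probe set for Cib3, and the value was not read by a second one.

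Tmie, which encodes the short membrane protein, was read by 3 probe sets. Probe set 1441926_x_at gave log2 values of 8.0, 7.7 and 8.0 in the cochlea and 9.0, 8.6 and 8.6 in the vestibule, and the arrays of the tissues did not overlap. Its means were 7.90 ± 0.17 and 8.73 ± 0.23 (SD, n = 3 each), which lay 0.83 apart, with a 95% confidence interval of 0.49 to 1.18 and a limma adjusted p of 0.00573 (1.78-fold). The suffix _x_at marks probe sets whose probes may also match other transcripts. Probe set 1443964_at, which carries no such suffix, gave 7.5, 7.8 and 7.8 in the cochlea and 8.4 on each vestibular array. These arrays did not overlap either, with the means 0.70 apart, a 95% confidence interval of 0.42 to 0.98 and a limma adjusted p of 0.00452 (1.62-fold). The remaining probe set, 1439838_a_at, read 4.5, 4.5 and 4.4 in the cochlea and 4.4, 4.6 and 4.5 in the vestibule. Its mean of 4.48 lay below the minimum, and it did not show the difference of the others. The mean of the 3 probe sets differed by 0.52 (limma adjusted p = 0.00181). Of the 5 tested member probe sets the arrays of the tissues did not overlap for 3, all with the vestibule higher. Among all tested probe sets they did not overlap for 27.5%, and 16.0% of all had the vestibule higher.

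Lhfpl5, whose product couples the channel to the tip link, was read by probe set 1429266_at at 8.9, 9.0 and 9.0 in the cochlea and 9.0, 8.9 and 9.0 in the vestibule. The tissues held the same 3 values, with means of 8.97 ± 0.06 (SD, n = 3) in each. The difference was 0.00 with a 95% confidence interval of -0.24 to 0.24 (limma adjusted p = 1), so that folds between 0.846 and 1.18 lay within the interval. At a level of about 9 this probe set was far above the minimum, and the interval is narrow beside the differences of Cib3 and Tmie.

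Tmc1, the pore subunit that later replaces Tmc2 in the cochlea, was read by 3 probe sets, of which 1430818_at passed the minimum. It gave 5.8, 5.1 and 5.5 in the cochlea and 5.7, 5.5 and 5.9 in the vestibule. The ranges overlapped, the means were 5.47 ± 0.35 and 5.7 ± 0.20 (SD, n = 3 each), and they lay 0.23 apart, which did not pass (95% confidence interval -0.19 to 0.66, limma adjusted p = 0.472). A fold of up to 1.58 towards the vestibule lay within that interval. Probe set 1421626_at read 4.5, 4.3 and 4.1 in the cochlea and 4.5, 4.2 and 4.1 in the vestibule, a difference of -0.03. Probe set 1421625_a_at read 3.8, 3.8 and 3.6 in the cochlea and 4.0, 3.9 and 4.2 in the vestibule. Its arrays did not overlap, by a gap of 0.1 that equals the rounding step, and in a fit of all 45037 probe sets without a minimum its difference of 0.30 had a 95% confidence interval of 0.03 to 0.57 and a limma adjusted p of 0.173.

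Tmc2, the other pore subunit, was read by probe set 1421707_at alone. It gave 4.6, 4.4 and 5.0 in the cochlea and 4.4, 4.3 and 4.5 in the vestibule. The highest value was that of cochlea replicate 3, and the ranges overlapped. The difference was -0.27, and in the fit without a minimum its 95% confidence interval was -0.63 to 0.10 (limma adjusted p = 0.376). Its mean of 4.53 lay below the minimum, and this low signal is no evidence that the transcript was absent. The log2 ratio of Tmc2 to Tmc1 on the same array, from the brightest probe set of each, was -1.2, -0.7 and -0.5 in the cochlea and -1.3, -1.2 and -1.4 in the vestibule. The ranges met at -1.2, and the difference of -0.50 gave a two-sided exact permutation p of 0.2 (0.24 adjusted over the 6 ratios compared), where 3 arrays against 3 cannot give less than 0.1.

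Promoter windows from RefSeq on GRCm38.p6, of 250 bases before and 50 after an annotated start, were found for 5 of the 6 genes, Tmc2 being the one without an entry. The window given for Cib3 lies, but for its outermost base, inside the span annotated for the gene and not before it, and it was left out here. Those of Tmie, which was called, and Lhfpl5, which had no difference, are shown so that a partner with and one without a tissue difference can be set side by side. The Tmie window is chr9:110880024-110880323 on the minus strand, and the Lhfpl5 window chr17:28575469-28575768 on the plus strand. Capitals mark each match to CANNTG, the E-box bound by basic helix-loop-helix factors such as the hair cell factor ATOH1. Each sequence runs 5′ to 3′.
Tmie: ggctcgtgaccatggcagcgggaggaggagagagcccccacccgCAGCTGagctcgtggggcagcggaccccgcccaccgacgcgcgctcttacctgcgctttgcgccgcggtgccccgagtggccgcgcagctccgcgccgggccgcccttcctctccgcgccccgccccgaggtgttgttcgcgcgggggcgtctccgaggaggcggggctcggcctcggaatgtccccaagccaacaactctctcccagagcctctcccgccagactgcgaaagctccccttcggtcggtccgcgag
Lhfpl5: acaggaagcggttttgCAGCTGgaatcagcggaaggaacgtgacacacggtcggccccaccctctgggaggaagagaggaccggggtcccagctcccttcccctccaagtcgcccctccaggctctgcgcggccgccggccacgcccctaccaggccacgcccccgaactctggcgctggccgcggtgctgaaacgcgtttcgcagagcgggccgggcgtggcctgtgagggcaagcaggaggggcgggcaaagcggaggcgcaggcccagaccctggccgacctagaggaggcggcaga

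The Tmie and Lhfpl5 windows held 1 match to CANNTG each, and both matches were CAGCTG. Among 32544 distinct windows of the same length, 72.3% held at least 1 match to CANNTG, which reads the same on both strands. The Tmc1 window held 1 match and the Cib2 window 0. These matches describe letters in a window, and binding was not measured. The Tmie and Lhfpl5 windows held 39 and 28 CpG dinucleotides, against a median of 7 over all windows. The windows of Tmie, which was called, and Lhfpl5, which was not, thus both held 1 match and more CpG than the median. The Tmc1 window held 1 CpG dinucleotide, though Tmc1 was not called either, so this likeness covers only the pair shown. A relation of these features to the calls was not tested.

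The genes that work beside the channel were taken from a list of 12 tip link and anchoring partners, of which 8 were read and tested. Of these, 4 were higher in vestibular tissue and 0 in cochlear tissue by limma, and 4 did not pass (5 and 0 where the p was not adjusted, and 0 in the cochlea under each of 16 alternative settings). By the brightest tested probe set of each gene, 15.1% of the 14162 tested genes were called towards the vestibule and 7.97% towards the cochlea. The median difference of the 8 partners was 0.68, against 0.03 over all tested genes. Pcdh15, the lower part of the tip link to which LHFPL5 binds, read 5.6, 5.3 and 5.9 in the cochlea and 6.7, 6.2 and 6.9 in the vestibule, a difference of 1.00 (limma adjusted p = 0.0119), which was not called where the spread of each probe set was estimated alone. Cdh23, which forms the upper part of the tip link, read 6.6, 6.3 and 6.5 in the cochlea and 6.9, 6.7 and 6.9 in the vestibule. Its difference of 0.37 had a limma adjusted p of 0.0900, and it was not called because the fold of 1.29 fell just short of the minimum. The tip link partners therefore stood on either side of the call, with arrays of the tissues apart for both. At the upper end of the tip link, Ush1c, the scaffold protein harmonin, stood at 1.57 (limma adjusted p = 1.77e-04), and Myo7a, the motor that carries it, at 1.47 (limma adjusted p = 1.47e-04). Myo1c, a motor implicated in adaptation of the channel, stood at 1.07 and was called higher in the vestibule at each of its 4 probe sets, by 0.60 to 1.27. The other 3 that did not pass were Atp2b2, the calcium pump of the stereocilia, at 0.27, Piezo2, a channel of reverse-polarity currents, at 0.07 and Clrn1, a membrane protein of the bundle, at 0.00. These 3 and Cdh23 were named after their values were seen.

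Of 22 genes of stereocilia structure 14 were tested, of which 8 were higher in the vestibule, 6 did not pass and 0 were higher in the cochlea (10 and 0 where the p was not adjusted, and 0 in the cochlea under each of 16 alternative settings). Their median difference was 0.45, against 0.03 over all tested genes, of which 15.1% were called towards the vestibule and 7.97% towards the cochlea. The called genes with the largest differences were Myo15, the motor that carries stereocilia tip proteins, at 1.77, Fscn2, an actin crosslinker, at 1.57, Espn, an actin bundler, at 1.5, and Myo3b, a motor of the tip, at 1.37. The range over the 14 was 0.07 to 1.77, so that the difference of Tmie lay inside the range of these bundle genes and that of Cib3 lay above it. These lists were named for hair bundles, but several of their genes are also active in other cells of the tissue.

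**Figure D2:**
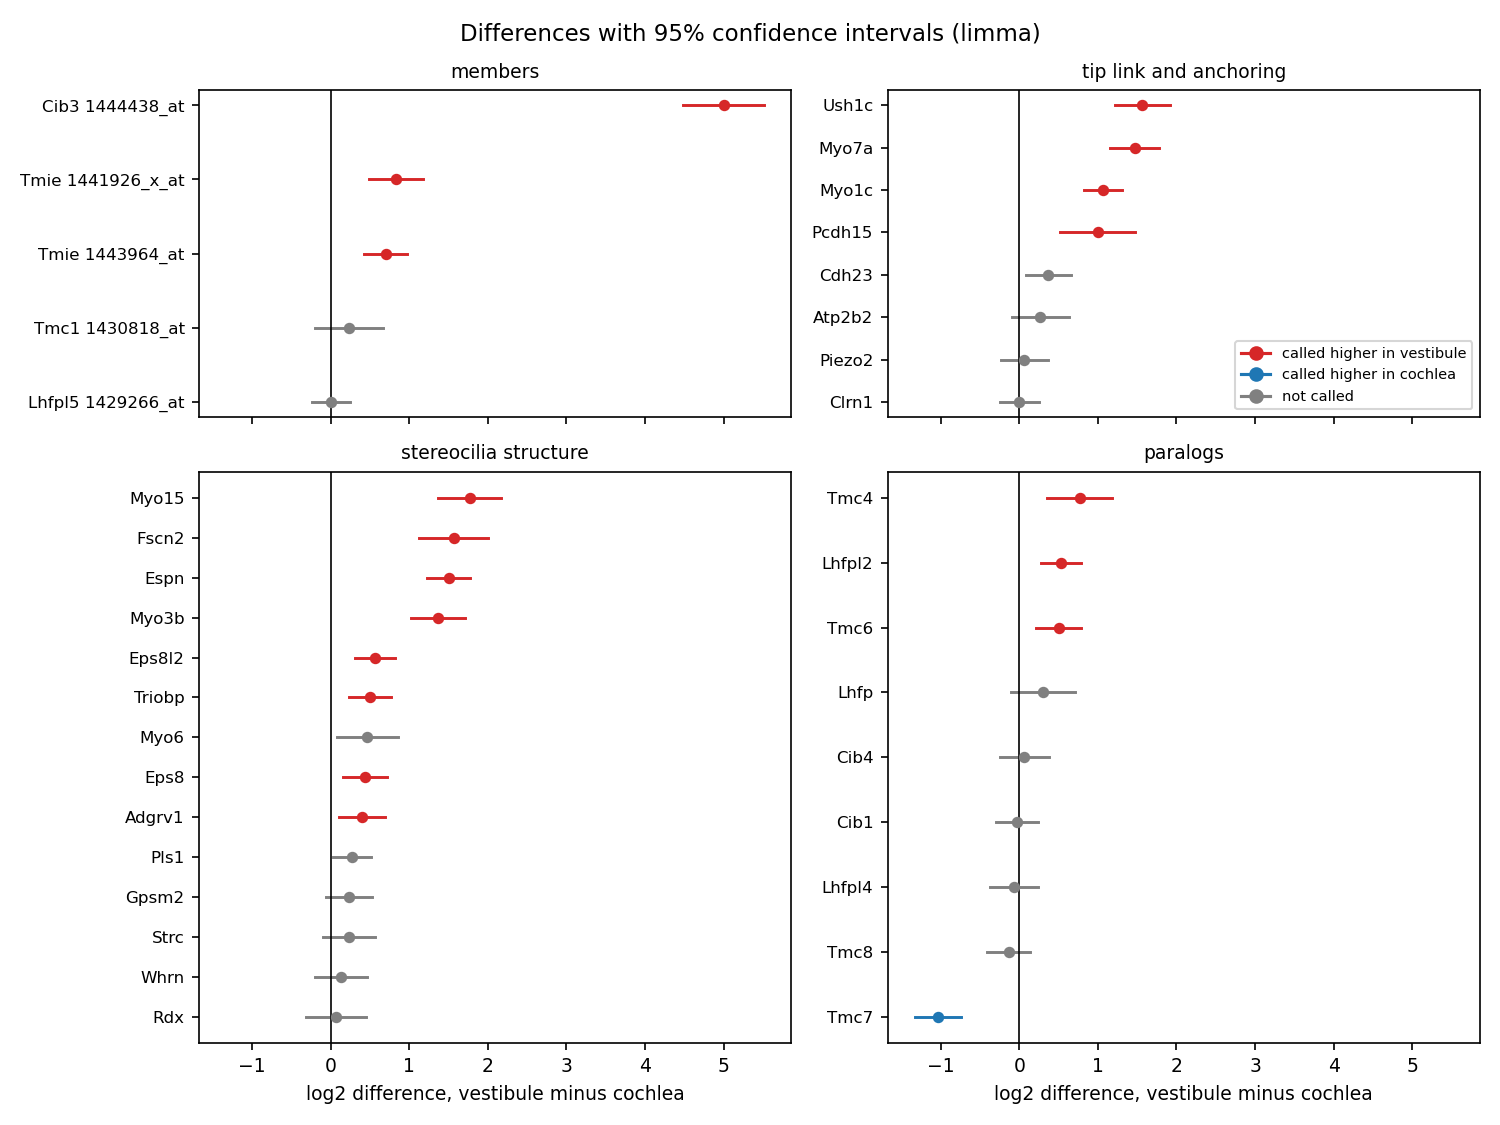
Log2 difference, vestibule minus cochlea (horizontal axis), with its 95% confidence interval for the 5 tested member probe sets and for tested genes of the tip link and anchoring, stereocilia structure and paralog lists (vertical axes); points are coloured by the limma call. Cib3 at 5.0 lies to the right of every gene drawn, Lhfpl5 lies at 0.00, and Tmc7 at -1.03 is the one point called towards the cochlea.

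Of 13 paralogs of the members 9 were tested, and 3 were called towards the vestibule, 1 towards the cochlea and 5 did not pass, with a median difference of 0.07. The shares over all tested genes were the 15.1% and 7.97% given above, and with 9 genes the single call towards the cochlea is close to the latter. Tmc7, a member of the TMC family outside the hair cell channel, was the one higher in the cochlea. It read 6.8, 7.0 and 7.2 in the cochlea and 6.0, 6.0 and 5.9 in the vestibule, a difference of -1.03 (limma adjusted p = 7.57e-04). Tmc4 at 0.77, Lhfpl2 at 0.53 and Tmc6 at 0.50 were higher in the vestibule, and 2 of the 4 probe sets of Lhfpl2 were called. The relatives of Cib3 did not show its difference, with Cib1 at -0.03 (95% confidence interval -0.30 to 0.23) and Cib4 at 0.07, both named after their values were seen. The read value of Cib4 was 4.73 in the cochlea and 4.80 in the vestibule, close to the lowest mean tested.

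Markers of hair cells were themselves higher in the vestibule. Of 22 hair cell identity genes 16 were tested, with 11 called towards the vestibule, 2 towards the cochlea and 3 not called, and a median difference of 1.12. Over all tested genes 15.1% were called towards the vestibule and 7.97% towards the cochlea. Myo7a, Myo6 and Espn are also in the tip link or stereocilia list, so these lists are not independent. The hair cell factors Atoh1 at 1.23, Pou4f3 at 1.00 and Gfi1 at 3.1 were called, and so were Myo7a and Otof, the calcium sensor of the hair cell synapse, at 1.53. The largest was Cabp2, a calcium-binding protein of hair cells, at 3.67, followed by Gfi1 and by Lhx3, a transcription factor, at 1.83. The 2 higher in the cochlea were the calcium buffer genes Pvalb at -2.10 and Calb2 at -1.10, which neurons of the ganglia also express. The log2 of the summed level of the 16 was 12.9 to 13.3 on cochlear arrays and 13.7 to 13.8 on vestibular arrays. The brightest probe set of Slc26a5, the motor of outer hair cells, was below the minimum in both tissues, at 3.93 and 3.97. The part of hair cell number in the member differences was not tested.

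Set against the mean of these 16 genes on the same array, the members parted in another way. Lhfpl5 stood 0.88, 0.62 and 0.92 above that mean in the cochlea and at -0.17, -0.18 and -0.16 against it in the vestibule, a difference of -0.98. Tmie stood at -0.03, -0.68 and -0.08 in the cochlea and at -0.17, -0.48 and -0.56 in the vestibule, so that its ranges overlapped and its difference was -0.14. That value was -0.02 without cochlea replicate 1 and -0.35 without cochlea replicate 2. Cib3 stood at -3.62, -3.38 and -3.18 in the cochlea and at 0.83, 0.22 and 0.84 in the vestibule, a difference of 4.03. The exact permutation test, two-sided, gave p = 0.1 for Lhfpl5 and Cib3, the smallest it can give for 3 arrays against 3, and p = 0.7 for Tmie, and none passes 0.05 (adjusted p of 0.2, 0.2 and 0.7 over 6 ratios). Against these genes the arrays of the tissues thus overlapped for Tmie at 1441926_x_at. The arrays lay apart with the cochlea higher for Lhfpl5, and with the vestibule higher for Cib3. The other bright Tmie probe set, 1443964_at, was not set against these genes, so the overlap is known for 1441926_x_at only. For Tmc1 and Tmc2 the differences were -0.74 and -1.24 (exact permutation p of 0.2 and 0.1), where both members read low signal and the mean of the 16 genes was itself higher in the vestibule. A ratio within an array shows unequal change and by itself does not say which side moved. The mean of the 16 genes was 8.0 to 8.4 on cochlear and 9.1 to 9.2 on vestibular arrays. Lhfpl5 itself differed by 0.00, so its -0.98 restates the rise of that mean and is no separate result.

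**Figure D3:**
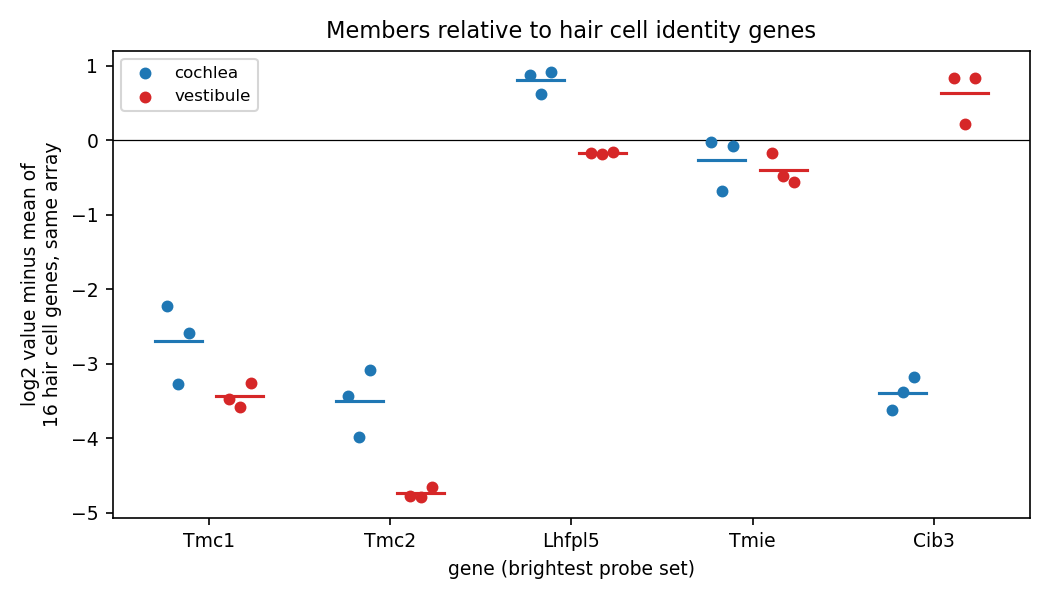
Log2 value of the brightest probe set of each member minus the mean log2 value of 16 hair cell identity genes on the same array (vertical axis), with 1 point for each of the 3 cochlear and 3 vestibular arrays and a bar at each mean. Cib3 lies higher in the vestibule by 4.03, and the points of Tmie overlap. Lhfpl5 lies lower by 0.98, though its own mean was the same in both tissues.

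Genes with a profile most like that of each called member were sought by the root mean square difference of mean-centred log2 values over the 6 arrays. For Cib3 they were Tnfaip2 at 0.262, Vnn1 at 0.390 and Sfrp5 at 0.407, whose own tissue differences were 5.07, 5.07 and 4.97. For the brightest probe set of Tmie they were Slc7a1, an amino acid transporter, at 0.0745, Synpo2, an actin-binding protein, at 0.0745 and Dzank1 at 0.0764, with tissue differences of 0.70, 0.90 and 0.73. These likenesses rest on 6 arrays in 2 tissues, and the measure counts the size of the tissue difference as well as the spread within a tissue.

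Markers of other cells in the dissected tissue moved with the tissue too, and their part in the member differences was not tested. Of 13 neuronal genes 10 were higher in the cochlea and 2 in the vestibule, with a log2 summed level of 13 to 13.1 on cochlear and 12.4 to 12.5 on vestibular arrays. Of 14 tested supporting cell genes 5 were higher in the cochlea and 3 in the vestibule (summed level 15.2 to 15.5 and 14.4 to 14.6). Every summed level given here adds unlogged values, so the brightest probe sets weigh most. The brightest supporting cell genes were Tectb at -1.37 and Tecta at -1.43, while the median difference of the list was -0.23. In the vestibule 6 of 7 macrophage genes were higher (10.4 to 10.6 on cochlear and 12.1 to 12.4 on vestibular arrays), as were 4 of 5 tested endothelial (9.1 to 9.4 and 10.9 to 11.2), 6 of 10 mesenchymal (15 to 15.5 and 15.6 to 15.8) and 3 of 6 tested Schwann cell genes (13.2 to 13.6 and 14.2 to 14.8), while 1 mesenchymal and 1 Schwann cell gene were higher in the cochlea. No macrophage or endothelial gene was called towards the cochlea in limma, with 0 also where the p was not adjusted. The shares over all tested genes were 15.1% towards the vestibule and 7.97% towards the cochlea. Array medians were 5.6 to 5.7. The cochlear arrays varied more, with residual SDs of 0.175 to 0.224 against 0.132 to 0.139 for the vestibular arrays.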

How the data were processed

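RNA of the dissected epithelia was amplified by the two-cycle kit and hybridised to Affymetrix mouse expression arrays. Per the study's methods, the authors ran RMA, with quantile normalization between arrays, to obtain log2 expression values, and the deposited log2 values carry 1 decimal and were used without further scaling. RMA and the MAS5 software, which gave Present calls, are named without versions in the sources used here. Present calls could not be repeated, and a mean log2 value of at least 4.7 over the 6 arrays took their place, which kept 29554 of 45037 probe sets after 64 control probe sets were left out. Genes were named for 34945 probe sets with a single gene, with symbols updated through the Entrez number, and not for 932 with several or 9160 with none.

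The tissues were compared in R 4.3.3 by the moderated test of limma 3.58.1 (two-sided), adjusted by Benjamini-Hochberg over all tested probe sets. Groups came from the sample titles. Ratios within an array were compared by exact permutation. Each gene was represented by its brightest probe set. Named are the probe sets of the members, up to 4 called genes of a list in each direction, 5 hair cell genes and the 3 nearest profiles of each called member. Some genes outside this rule are also named, among them Slc26a5, which was not tested. The members and the lists were chosen with earlier results of these data known. Alternative settings covered filters, scalings, limma options, a t-test, the replicate number as a block, single arrays left out, thresholds, and the choice of probe set and of reference genes. The ratio of Cib3 to Cib2 could not be formed. The procedure was tested on simulated data with independent arrays, which does not cover effects shared between arrays. Plots were made in matplotlib 3.10.9 under Python 3.11.15. The number of arrays limits the precision.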

Additional observations from a re-analysis of the deposited data

How the results depend on the processing

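Cib3 and Tmie were called towards the vestibule under each of the 18 alternatives run for them and Lhfpl5 under none of its 18. Tmc1 was not called under any alternative that tested it, and it was not tested under the stricter filter or with the mean of its probe sets. Cib3 ranged from 4.82 to 5.23 and the brightest probe set of Tmie from 0.70 to 0.90 with 1 array left out, and the adjusted p of Tmie ranged from 0.00181 to 0.0714 over all alternatives, the highest being that of the plain t-test. The count of 3 member probe sets towards the vestibule and 0 towards the cochlea did not change under the 16 alternatives run for it. By the plain t-test 3 tip link partners and 6 stereocilia genes were called towards the vestibule (0 each towards the cochlea), among the genes named here Pcdh15, Tmc4 and Pou4f3 were not called, and no macrophage or endothelial gene was called towards the cochlea. Tmc1 ranged from 0.05 to 0.40 and Tmc2 from -0.40 to -0.10 with 1 array left out.

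With 1 array left out, the difference of Tmie from the mean of the hair cell genes ranged from -0.35 to -0.02. With the median of the hair cell genes in place of their mean, the within-array differences from them were -1.32 for Tmc1, -1.82 for Tmc2, -1.55 for Lhfpl5, -0.72 for Tmie and 3.45 for Cib3. Without Calb2 and Pvalb, a choice made after seeing the data, they were -1.11 for Tmc1, -1.61 for Tmc2, -1.34 for Lhfpl5, -0.51 for Tmie and 3.66 for Cib3. The cause of the shift with the median was not tested. The tissue difference of Tmie against these genes was thus -0.14 with their mean and -0.72 with their median, so it depends on how they are averaged. Without vestibule replicate 1 only 1 paralog was called higher in the vestibule, and without a filter 2 were higher in the cochlea.

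Calls over all probe sets numbered 5741, against 3510 by the plain t-test and 3769 without vestibule replicate 1. Same-numbered arrays correlated in their deviations at 0.218, 0.153 and -3.98e-04, and not every array correlated best with its own number, so the numbers were not taken to pair the arrays. With the replicate block 4678 probe sets were called, and the adjusted p was 0.0328 for Tmie and 0.00960 for Cib3, both still called. Probe sets near or below 4.7 in mean value, such as those of Tmc2 and most of Tmc1, may be limited by signal over background, which was not measured here.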
